A study of Drosophila melanogaster with 2 samples.

Results

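Binding sites of the CG15710 protein were examined at 10 Drosophila melanogaster genes for abundant chromatin proteins. They were HmgD, HmgZ, Dsp1 and Ssrp, which encode HMG-box proteins, the histone variant genes His2Av, His3.3A and His3.3B, and HP1a, HP1b and HP1c of the heterochromatin protein 1 (HP1) family. HP1a is used here for the gene also called Su(var)2-5 (FBgn0003607). The 10 genes were chosen by name from this set of protein families, with earlier results of these data known. All 10 were found in the annotation, among 13945 protein-coding genes in all. The binding sites came from chromatin immunoprecipitation and sequencing (ChIP-seq) of whole pupae aged 24 hours, males and females pooled, from 1 transgenic line that stably carried CG15710 with GFP on its C-terminus. An antibody against GFP precipitated the tagged protein from sonicated chromatin. There was 1 group of 2 biological replicates, numbered 1 and 3, so samples could not be compared by condition. The promoter that drives the transgene is not given in the sources used here, and whole animals mix all tissues, so binding in few cells and weak binding in many cannot be told apart.

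These genes encode general components of chromatin. HMG-box proteins bind and bend DNA, most of them with little sequence preference. Histone variants replace the standard histones outside DNA replication and mark particular nucleosomes. HP1 proteins read methylated lysine 9 of histone H3 through their chromodomain, and HP1a is needed to silence genes placed near heterochromatin.

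The deposited data were 4 lists of peaks on genome build dm6. Each replicate and the pool of both had a list of 30000 peaks, and an IDR list (irreproducible discovery rate, a step that uses the replicates' ranks) held 8483 peaks, which were the 8483 strongest of the pooled list. Each peak has a summit and a signal, a strength given by the authors' peak caller on a scale that is not stated, so signals and ranks (1 is the strongest) are compared within a list only. IDR signals ran from 159.0 to 9376 with a median of 329.4, and without read counts the depth is unknown. A peak was assigned to a gene when its summit lay in the gene or within 2 kb of it, and to its promoter when it lay no more than 500 bp from an annotated transcription start site (TSS) of that gene. Distances are signed, with upstream negative. Since no test between groups exists, each count is set beside the same count over all protein-coding genes.

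Sequences are printed for 6 genes with an IDR summit, from the strong sites of HP1a and Dsp1 to the weak one of His3.3A, so that sites of unlike strength can be compared. Those of HmgD and HmgZ are not printed, and Ssrp and HP1c had no IDR summit. Each reaches 50 bp to either side of an IDR summit and is read 5′ to 3′ on the strand of the named gene from the RefSeq copy of the dm6 assembly. Capitals mark the longest run made only of A and T. For each of the 6 genes the strongest summit is shown, and for HP1a also the summit at its own promoter. The summits of His3.3A and of the HP1a promoter are the midpoints of peaks 400 bp wide.
Dsp1, chrX:16332956-16333056, plus strand: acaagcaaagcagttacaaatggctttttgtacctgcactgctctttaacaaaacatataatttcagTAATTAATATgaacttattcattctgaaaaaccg
His2Av, chr3R:26866655-26866755, plus strand: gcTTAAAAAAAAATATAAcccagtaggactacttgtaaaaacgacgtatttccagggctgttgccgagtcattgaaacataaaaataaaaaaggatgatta
His3.3A, chr2L:5055111-5055211, plus strand: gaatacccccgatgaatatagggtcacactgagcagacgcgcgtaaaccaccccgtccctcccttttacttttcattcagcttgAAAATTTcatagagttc
His3.3B, chrX:9155237-9155337, minus strand: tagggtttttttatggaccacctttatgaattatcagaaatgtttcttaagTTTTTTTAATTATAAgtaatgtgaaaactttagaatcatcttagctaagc
HP1a, site upstream, chr2L:8212955-8213055, minus strand: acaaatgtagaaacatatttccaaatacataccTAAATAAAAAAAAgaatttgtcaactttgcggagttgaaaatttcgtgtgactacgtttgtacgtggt
HP1a, promoter, chr2L:8211215-8211315, minus strand: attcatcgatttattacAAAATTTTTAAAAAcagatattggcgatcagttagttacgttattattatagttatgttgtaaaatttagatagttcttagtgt
HP1b, chrX:9081148-9081248, plus strand: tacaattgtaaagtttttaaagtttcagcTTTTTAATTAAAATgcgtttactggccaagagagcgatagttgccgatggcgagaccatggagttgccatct

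IDR peaks lay at 8 of the 10 genes and at the promoters of 7. A promoter summit was found for HmgD, HmgZ, His2Av, His3.3A, His3.3B, HP1a and HP1b, against 24.6% of all protein-coding genes. Dsp1 had IDR peaks only outside the promoter window, and Ssrp and HP1c had none. Within 2 kb, 8 of 10 genes held an IDR summit against a background of 42.9%, and 9 of 10 held a summit of the pooled list against 62.8%. In 6 genes (HmgD, HmgZ, Dsp1, His3.3B, HP1a and HP1b) there were 2 or more IDR summits, against 17.4%. Pooled summits lay at the promoters of 9 genes, all but HP1c, against 47.0%. The background rises with the number of TSSs. It was 18.6% for genes with 1 TSS, where HP1a and His2Av of the 4 such genes had a promoter summit, 35.6% with 2 TSSs, where His3.3A and HP1b of 3 did, and 49.9% with 3 TSSs, where HmgD, HmgZ and His3.3B all did. The promoter count depended on the replicate. With the 8483 strongest peaks of replicate 1 alone it was again 7, the same genes, but with those of replicate 3 alone it was 4 (His2Av, His3.3B, HP1a and HP1b), beside backgrounds of 24.3% and 24.8%. With the 4241 strongest IDR peaks alone it was 3 (His2Av, His3.3B and HP1b) beside 13.6%.

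**Figure D1:**
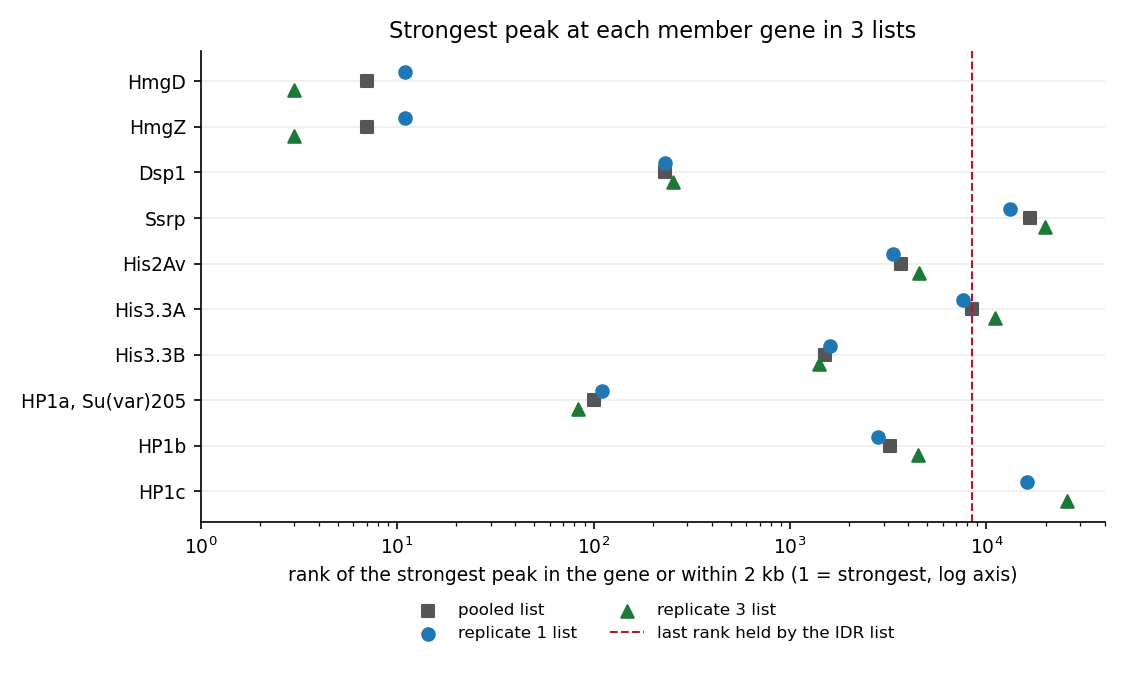
Rank of the strongest peak in each gene or within 2 kb of it (horizontal log axis, 1 is the strongest) in the pooled list (squares), replicate 1 (circles) and replicate 3 (triangles); the dashed line marks rank 8483, the last held by the IDR list. HmgD and HmgZ share a peak at rank 7, HP1a and Dsp1 reach ranks 100 and 232, Ssrp lies beyond the line, and HP1c has no pooled peak.

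Among the chosen genes, HmgD and HmgZ stood at the top in both the strength and the number of their peaks. HmgD encodes an abundant HMG-box protein of chromatin, and HmgZ its close relative. The genes lie on opposite strands of 2R and overlap over 6404 bp, HmgD (FBgn0004362, plus strand, 21701458 to 21716727) with TSSs at 21701458, 21713356 and 21714136, and HmgZ (FBgn0010228, minus strand, 21697488 to 21707861) with TSSs at 21707861, 21704501 and 21702830. HmgD with its flanks held 12 IDR summits, a number that 57 protein-coding genes reached (0.409%). These include cic, an HMG-box gene among the related genes described below, which held 13 IDR summits in the gene or within 2 kb. A high number of summits was thus not limited to HmgD and HmgZ among HMG-box genes. HmgZ held 9, which 114 genes reached (0.817%), and all 9 were also among the 12 of HmgD, so the genes do not count as separate cases. Some neighbouring summits of the locus belong to overlapping peaks or share a replicate peak, so they are not all separate sites. HmgD is 15270 bp long, while the median protein-coding gene has 2166 bp. Per kb of gene and flanks, HmgD had 0.623 IDR summits and HmgZ 0.626, densities that 0.323% and 0.301% of genes reached.

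The strongest of these peaks had rank 7 in the IDR list. It spans 21703057 to 21703707 on 2R and had a signal of 6542 in the pool, of 3618 (rank 11) in replicate 1 and of 2933 (rank 3) in replicate 3. Its summits in replicates 1 and 3 lay 1 bp and 7 bp from the pooled summit, in introns of both genes. The pooled summit was 1985 bp downstream of the first HmgD TSS and 613 bp upstream of the third HmgZ TSS, which starts 2 of the 4 HmgZ transcripts. It lay 1058 bp downstream of the second HmgZ TSS and 4418 bp downstream of the first. Only 15 genes, or 0.251% of the 5976 with an IDR summit in reach, had one of this strength or more, HmgD and HmgZ included. The next strongest peak of the locus, with a signal of 560.6 at rank 2353, had 8.57% of its signal.

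The other 11 IDR peaks of the locus were of middle or low rank. The summit with a signal of 481.1 (rank 2849) lay 694 bp upstream of HmgD, in an intron of HmgZ. The one of 560.6 lay in an HmgD intron, 1211 bp upstream of the first HmgZ TSS, within an exon of the long noncoding RNA gene lncRNA:CR44749. A neighbouring summit (signal 292.2, rank 4791) was 169 bp upstream of the TSS of that noncoding gene. A run of 4 more, with signals from 167.6 to 191.6, formed a row in which the first and last summits were 754 bp apart, between the first and second HmgZ TSSs. In the distal part of HmgD, a summit of signal 249.4 (rank 5610) lay 1237 bp upstream of the second TSS and one of 198.7 (rank 6911) 664 bp downstream of the third, both in introns. Replicate 3 had 2 peaks over the first of these, with ranks of 8130 and 16816.

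At the start sites themselves the peaks were weak. The only IDR summit within 500 bp of an HmgD TSS had a signal of 172.1 (rank 7893) and fell on the second TSS, at 0 bp. The only one for HmgZ had a signal of 161.2 (rank 8393), 302 bp upstream of the second TSS. Both peaks were 400 bp wide with the summit at the midpoint. Of all IDR peaks, of any width, 31.2% had the summit at the midpoint. Matched replicate peaks of the HmgD start site ranked 6729 in replicate 1 and 9232 in replicate 3, and those of the HmgZ site 6447 and 9435. Pooled peaks below the IDR list lay 64 bp upstream of the third HmgD TSS (signal 142.9, rank 9259) and 77 bp downstream of the first HmgZ TSS (signal 50.18, rank 20309). At the first HmgD TSS the nearest pooled summits were those 523 bp downstream (signal 127.0) and 694 bp upstream.

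**Figure D2:**
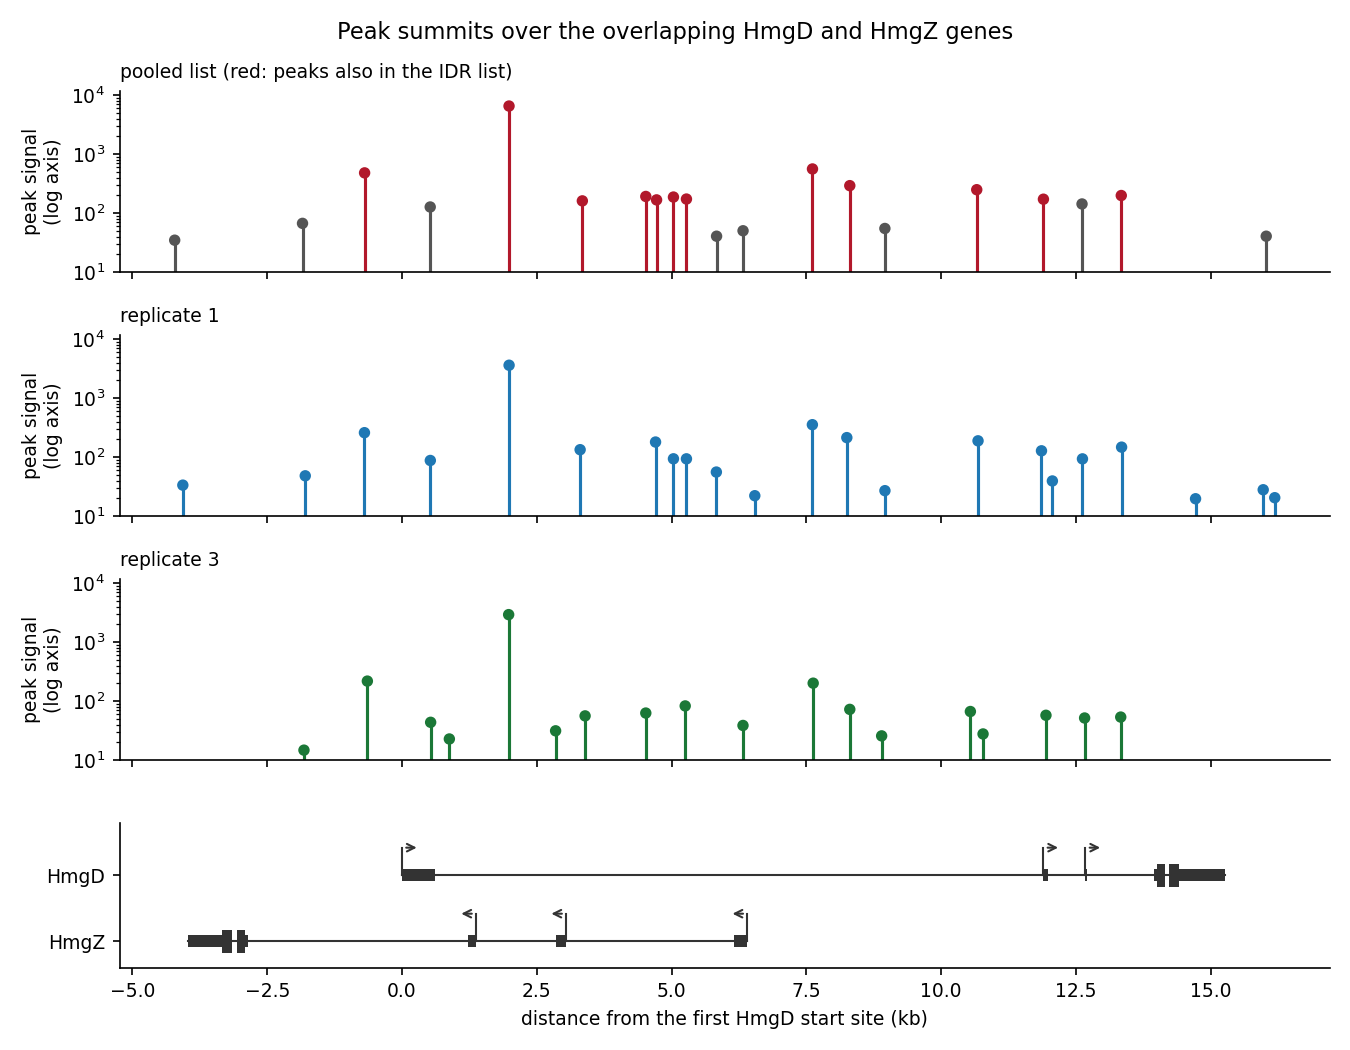
Signal of each peak (vertical log axis) at its summit's distance from the first HmgD start site (kb) for the pooled list, with IDR peaks in red, and for each replicate; the bottom panel shows exons, coding exons taller, with arrows at start sites. One peak with signals of 6542, 3618 and 2933 stands above all others in each list, 1985 bp from the first HmgD start site.

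Dsp1, which encodes an HMG-box corepressor that acts with Dorsal, had a strong site outside its promoter window. The gene (FBgn0278608, X, plus strand, 16333612 to 16340624) has TSSs at 16333612, which starts 6 transcripts, and at 16336184, which starts 1. A peak at 16332742 to 16333250 had a signal of 2122 (rank 232), of 1339 in replicate 1 (rank 231) and of 800.7 in replicate 3 (rank 255), so its place in the order was nearly the same in all lists. Its summit was 606 bp upstream of the first TSS, and 573 bp in replicate 3. It lay in an intron of CG9921, whose own TSS is 12 bp upstream of that of Dsp1 on the other strand. With a promoter window of 1000 bp Dsp1 counted as bound. The second IDR peak (signal 366.0, rank 3836) was in an intron, 830 bp upstream of the second TSS, with ranks of 4050 and 3993 in the replicates. Within 500 bp of the first TSS the pooled list had only a weak peak 195 bp downstream (signal 57.78, rank 18401), and replicate 1 had none. Just outside that window, a stronger pooled peak lay 563 bp downstream in the 5′ UTR (signal 115.3, rank 11055). Near it, replicate 1 had a peak 529 bp downstream (signal 104.1, rank 8184) and replicate 3 one 490 bp downstream (signal 23.11, rank 19685).

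Ssrp encodes the HMG-box subunit of FACT, a histone chaperone that helps RNA polymerase pass nucleosomes, and it had no IDR peak. The gene (FBgn0010278, 2R, minus strand, 23806361 to 23809004) has 1 TSS, 232 bp from that of CG5543 on the other strand. The only pooled peak had a signal of 66.64 (rank 16650) at 114 bp upstream, midway between both starts, with a −log10 q of 1.76 where IDR peaks have 4.37. Replicate 1 had a summit 222 bp upstream (signal 61.07, rank 13114) and replicate 3 one 28 bp upstream (signal 22.8, rank 19908), so the replicates placed it unlike each other. The nearest IDR peak was 35856 bp away.

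**Figure D3:**
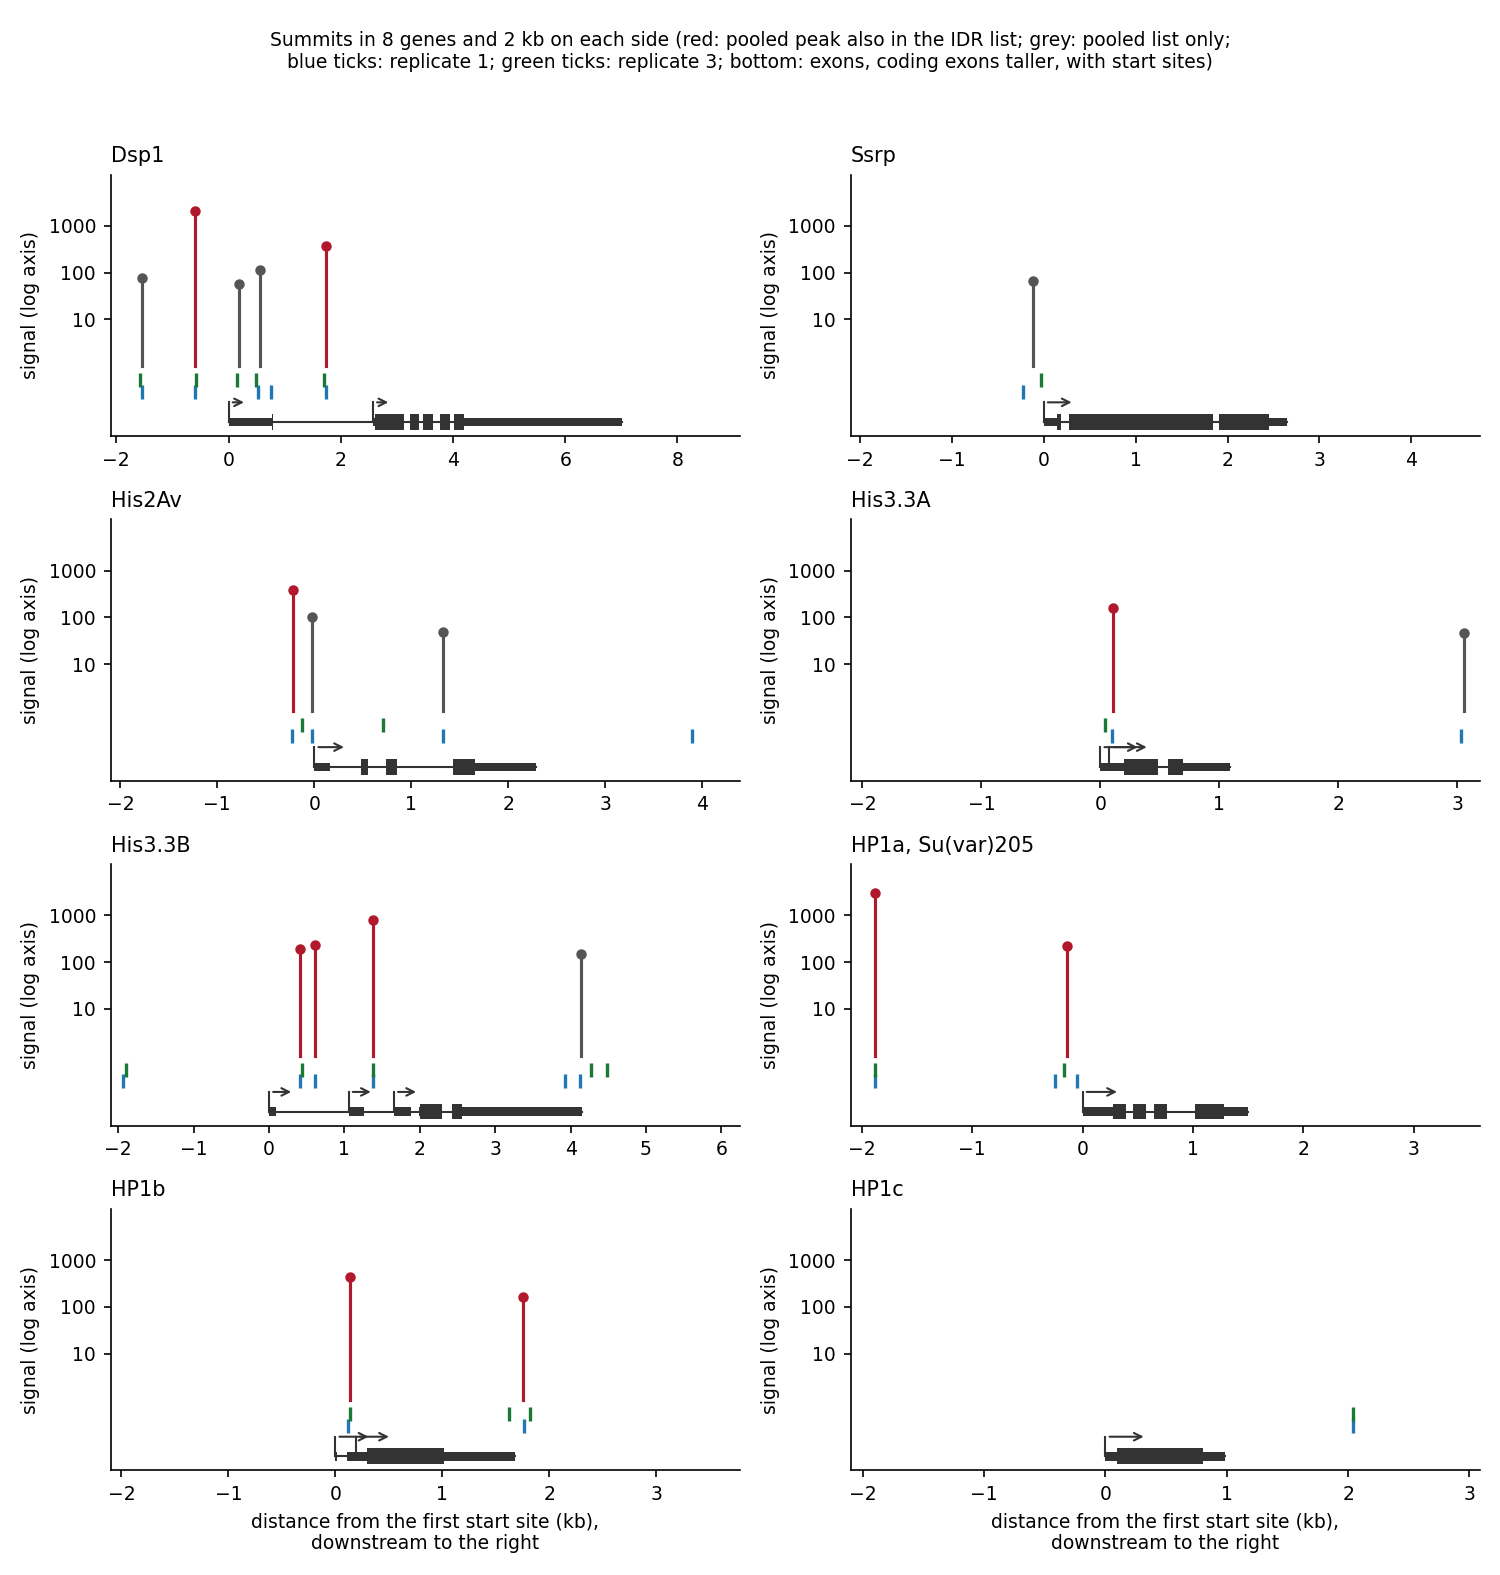
Signal of pooled peaks (vertical log axis; red where also in the IDR list, grey otherwise) against distance from the first start site (kb, downstream to the right) at 8 genes, with replicate 1 summits as blue ticks, replicate 3 summits as green ticks and gene models below. The tallest peaks of Dsp1 and HP1a stand 606 bp and 1883 bp upstream, those of His2Av, His3.3A and HP1b lie near a start site, and Ssrp and HP1c have no red peak.

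All 3 histone variant genes among those chosen had an IDR summit at a promoter, with strengths that differed. Over all protein-coding genes the share was 24.6%. In a further group of genes for histone variants and their deposition, described below, 2 of 14 had such a summit. The genes cid, BigH1 and His4r of that group had none at a promoter. His2Av encodes the single H2A variant of the fly, which does the work of both H2A.Z and H2A.X. The gene (FBgn0001197, 3R, plus strand, 26866929 to 26869220) had 1 IDR summit 224 bp upstream of its only TSS, with a signal of 380.1 (rank 3679). The matched peaks ranked 3347 in replicate 1 (230 bp upstream) and 4546 in replicate 3 (129 bp upstream). The pooled summit was nearer to ball, a gene on the other strand whose product is a histone H2A kinase, and lay in an intron of ball, 80 bp upstream of one of its TSSs. When each summit was given only to the gene of the nearest TSS, His2Av no longer counted as bound.

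His3.3A and His3.3B both encode histone H3.3, which is deposited independently of replication. His3.3B (FBgn0004828, X, minus strand, 9152523 to 9156669) was the more strongly bound, with 3 IDR summits, a number that 7.59% of genes reached. All 3 lay in introns and within 500 bp of one of its TSSs (9156669, 9155613 and 9155012). The strongest (9155129 to 9155480) had a signal of 796.0 (rank 1508), and ranks of 1589 and 1405 in the replicates. It was 275 bp upstream of the third TSS and 326 bp downstream of the second, and its summits in the replicates were 3 and 2 bp away. The others had signals of 236.3 (450 bp upstream of the second TSS) and 187.2 (406 bp downstream of the first). Replicate 3 had 1 peak over both. A pooled peak of signal 152.8 (rank 8767), just below the IDR list, lay in the 3′ UTR.

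His3.3A (FBgn0014857, 2L, plus strand, 5055058 to 5056149) had 1 IDR summit, at 5054961 to 5055360 with a signal of 159.5. At rank 8461 of 8483 it was near the end of the list, and 99.8% of genes with an IDR summit had one as strong or stronger. Replicate 1 had the peak at rank 7554 and replicate 3 at rank 11057, beyond the first 8483. The summit, the midpoint of a peak 400 bp wide, was 103 bp and 27 bp downstream of the TSSs at 5055058 and 5055134. It lay in the 5′ UTR and 145 bp upstream of the TSS of CG14036 on the other strand. In replicate 3 the summit was 33 bp upstream of the second TSS.

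The HP1 genes ranged from one of the strongest sites to none. HP1a (FBgn0003607, 2L, minus strand, 8209626 to 8211122) had an IDR peak at 8212811 to 8213217 with a signal of 2962 (rank 100), and ranks of 111 and 83 in replicates 1 and 3. Its summit was 1883 bp upstream of the HP1a TSS, near the 2 kb limit, and replicate summits were 3 bp and 0 bp from it. It lay near the starts of other genes, 103 bp upstream of CG8372 and 46 bp downstream of CG8360, in the 5′ UTR of the latter. At the TSS of HP1a itself was a weaker peak (8211065 to 8211464, signal 226.4, rank 6152), with its summit, the midpoint, 143 bp upstream. That summit was 82 bp upstream of Ssb-c31a, a gene on the other strand for a single-stranded DNA-binding coactivator, whose TSS is 225 bp away. The promoter peak ranked 7169 in replicate 1 and 4730 in replicate 3, with summits 51 bp and 170 bp upstream of the HP1a TSS. Under the nearest-TSS rule it counted for Ssb-c31a.

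HP1b (FBgn0030082, X, plus strand, 9081063 to 9082746) encodes an HP1 protein found in both euchromatin and heterochromatin. Its promoter peak (9081079 to 9081295) had a signal of 429.5 (rank 3226), with ranks of 2789 and 4504 in the replicates. The summit lay between the TSSs at 9081063 and 9081254, 135 bp downstream of the first and 56 bp upstream of the second, and 141 bp upstream of CG7246 on the other strand. The second IDR peak (signal 163.8, rank 8269) was 69 bp past the 3′ end of HP1b and 116 bp upstream of APC4, a gene for a subunit of the anaphase-promoting complex. The summit of this second peak was its midpoint. Replicate 3 had 2 peaks in its place, with ranks of 7694 and 10278.

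HP1c (FBgn0039019, 3R, plus strand, 22745620 to 22746605), whose product is found mainly in euchromatin, had no IDR or pooled peak within 2 kb. Each replicate had 1 weak peak, 1053 bp and 1055 bp past its 3′ end, with a signal of 46.46 in replicate 1 (rank 16094) and 17.27 in replicate 3 (rank 25601). These lay 59 bp and 61 bp upstream of CG17141. The nearest IDR summit was 4084 bp past the 3′ end, with a signal of 714.3 (rank 1729), and the TSS of vret on the other strand is 39 bp from that of HP1c. Both Ssrp and HP1c thus have a close divergent neighbour, as did Dsp1, His2Av, His3.3A, HP1a and HP1b. A TSS of another protein-coding gene on the opposite strand lay within 1000 bp of the first TSS in these 7 of 10 genes, against 36.3% of protein-coding genes.

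The 2 kb limit decided few calls, but it did decide which peaks some genes held. At HP1c the nearest pooled summit outside was 4084 bp away, and at His3.3A an IDR summit lay just outside, at 2357 bp (signal 190.1, rank 7217). The farthest IDR summits inside were those at 1903 bp from HmgZ and 1883 bp from HP1a. With a flank of 1000 bp the same 8 genes had an IDR summit, beside 35.9% of protein-coding genes (42.9% with 2 kb). That flank leaves out the rank 100 summit of HP1a, so its strongest is then the promoter summit at rank 6152. It also leaves out the HmgZ summits at 1211 bp and 1903 bp. With 5000 bp HP1c was added, which made 9 genes beside 57.4%.

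All 23 IDR peaks of the 10 genes overlapped a peak in each replicate, against 96.9% of all IDR peaks. Of the 23, 18 had a summit within 100 bp in both replicates, against 92.7% of all IDR peaks. In both replicates 15 overlapped at least 1 of the 8483 strongest peaks, against 81.3% of all IDR peaks. Neighbouring peaks shared replicate peaks, 2 of them in replicate 1 and 6 in replicate 3, so the 23 are not separate cases. Their ranks in the replicates had a Spearman correlation of 0.730 over the 23, a description of peaks that share libraries. The pooled summit lay a median of 6 bp from that of replicate 1 and 38 bp from that of replicate 3, against 6 bp and 14 bp over all IDR peaks. At 8 of the 23 peaks the pooled summit was the midpoint, against 31.2% of all IDR peaks. By feature, 14 of the 23 summits lay in an intron, 3 in a 5′ UTR, 5 upstream of the gene and 1 downstream, taking HmgD for the peaks it shares with HmgZ, and none lay in a coding exon.

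The base composition of the peaks varied widely between sites. The windows at the 23 summits, 50 bp to either side, had a median of 65.3% A and T (43.6% to 82.2%), against 69.3% for all 8483 IDR summits. Windows 300 bp to the left had a median of 53.5% in both sets. The window was richer in A and T than its left flank at 15 of 23 summits (65.2%), against 81.7% of all IDR summits. The rank 7 summit of HmgD and HmgZ had 77.2%, a value that 14.4% of IDR summits reached, and the summit of signal 560.6 had 82.2%, which 3.01% reached. Yet 6 of the 12 summits of that locus were under 55%, as were 857 (10.1%) of all IDR summits, and these 6 had a median signal of 181.9. Over the IDR list the median A and T content was 72.3% in the 2120 strongest peaks and 66.3% in the 2121 weakest, so composition moved with signal, and its part in the spread between sites was not tested. The 11 summits of the other genes had a median of 67.3%, and the weak His3.3A summit was the poorest in A and T among them, at 53.5%.

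**Figure D4:**
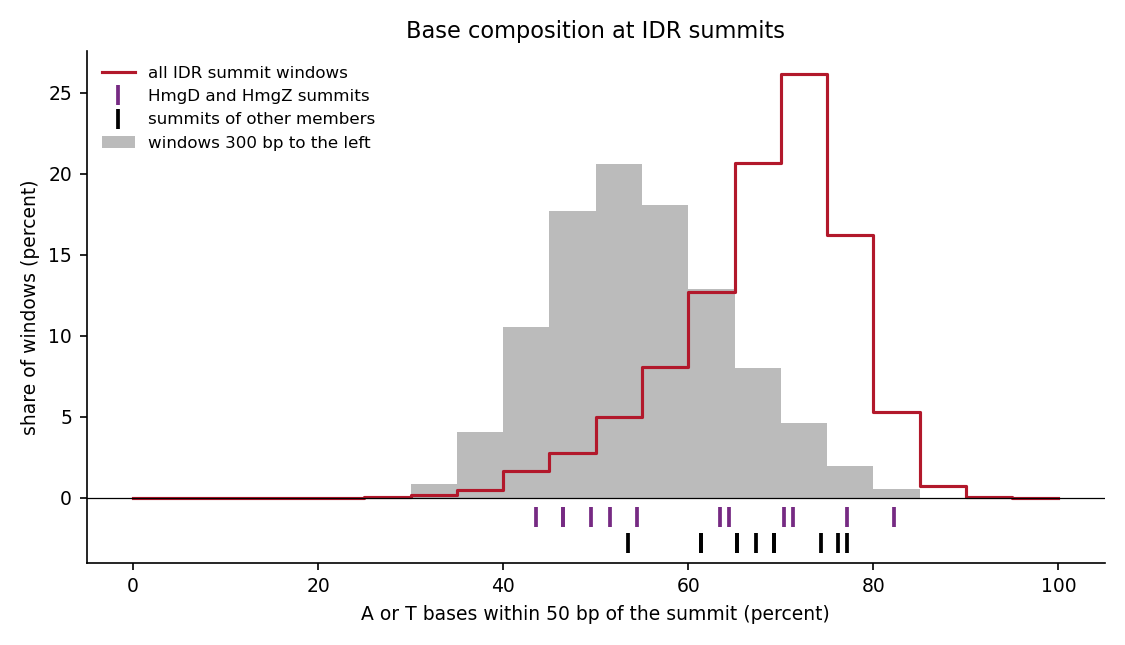
Share of windows (percent) by their A and T content (percent, bins of 5) for all 8483 IDR summit windows (red line) and windows 300 bp to the left (grey bars), with ticks below for the 12 summits of HmgD and HmgZ (purple) and the 11 of the other genes (black). The purple ticks run from 43.6% to 82.2%, and 6 of them lie under 55%.

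Of 7 letter strings searched on both strands, most known from fly promoters, a run of A was the most common at the summits. The string AAAAAA was at 12 of 23 member summits, against 32.1% of IDR summits and 17.6% of left flanks. The TATA box (TATAAA) was at 3, against 24.5%, the string GAGAG at 4 (9.74%) and CGATA, the core of BEAF-32 sites, at 4 (12.0%). The E-box CACGTG was at 0 (0.519%), and so was the DNA replication-related element (DRE, TATCGATA), which contains CGATA (0.967%). The core of Motif 1, GGTCACACT, was at 1, the His3.3A window printed above, and at 0.413% of IDR summits. In the 300 bp promoters (250 bp before to 50 bp after the first TSS), CGATA was in 6 of the 10 genes, against 47.4% of 13945 promoters, and DRE in 0, against 9.36%. CACGTG was in 2 of the 10, Dsp1 and HP1b, against 4.2%. AAAAAA was in 6 (50.4% of all promoters), GAGAG in 4 (29.7%), TATAAA in 3 (45.8%) and GGTCACACT in 1 (6.05%). These counts describe letters only.

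Promoters of other genes that work with these proteins held IDR summits at about the share of all genes. Of 35 genes for HMG-box or AT-hook proteins and the FACT partner of Ssrp, for HP1 partners and relatives and for histone variants and their deposition, 10 (28.6%) had a promoter IDR summit, beside 24.6% of all genes, and 19 (54.3%) had an IDR summit within 2 kb, beside 42.9%. By promoter summit and group these were 4 of 7 or 57.1% (dre4, Hmg-2, bbx and cic) and 4 of 14 or 28.6% (Su(var)3-7, HP4, woc and row). In the third group they were 2 of 14 or 14.3% (yem and XNP). The strongest promoter summits were those of bbx, an HMG-box gene (signal 2957, 210 bp upstream of a TSS), row, whose product binds HP1c (signal 1301, rank 686, 126 bp upstream), and cic, an HMG-box repressor gene (signal 1045, rank 1022, 346 bp upstream). The summit of dre4, for the larger FACT subunit, had a signal of 312.6 (rank 4478) 220 bp upstream, whereas Ssrp had none. The genes for HP1c partners row and woc had promoter summits, the second with a signal of 613.5 (rank 2095), whereas HP1c had none. Within 2 kb, IDR summits lay at 6 of 7 genes (85.7%) of the first group, 8 of 14 (57.1%) of the second and 5 of 14 (35.7%) of the third. In the third group yem, XNP, His4r and 2 genes for subunits of the chromatin assembly factor CAF-1 had them. Hira, asf1, Nap1 and 6 others of that group had none.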

How the data were processed

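ChIP-seq of 24-hour pupae gave 4 narrowPeak lists on dm6, per the labels and the descriptions deposited with the lists. The authors called peaks on each replicate and on both pooled, each with a further file that is not described, and an IDR step on these gave the last list. The aligner and the peak caller were not given in the sources used here. The deposited signal is each peak's own value within a list. The deposited −log10 q-value is given once, as a description; all IDR peaks share its highest value. The depth is unknown, so no interval is given. Summits (start plus the deposited offset) were placed with Python 3.11.15, pandas 2.3.3 and numpy 2.4.6 on Ensembl release 115 genes of the 6 main arms (BDGP6.54, the dm6 assembly), without transposable elements, and the placement was checked on planted summits. A replicate peak matched when it overlapped by at least 1 bp, and the one with the nearest summit was used. Bases were read from the RefSeq genome of dm6.

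The 10 genes, the related genes and the motifs were chosen with earlier results of these data known, so no set test was run. Named were all members, genes with a TSS within 500 bp of a member's IDR summit or overlapping one, and related genes with the strongest promoter summits. Other names were chosen after their values were seen. Alternatives were other windows, flanks, overlap rules, the stronger IDR peaks, and each replicate alone.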

Additional observations from a re-analysis of the deposited data

How the results depend on the processing

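Of the alternatives for counts, those not named here stayed within 1.5 times. Among the 4241 IDR peaks of highest signal, 3 members had a promoter summit instead of 7, with 1892 protein-coding genes instead of 3426, and 3810 instead of 5976 had a summit within 2 kb. Without replicate 1, 4 members had a promoter summit and 7 a summit in reach, beside 24.8% and 43.9% of protein-coding genes. Without replicate 3 these were 7 and 8 members, beside 24.3% and 42.1%. Of the 23 IDR peaks, 15 instead of 23 had a match in both replicates when replicate peaks had to be among the 8483 strongest. The His3.3A summit, 27 bp downstream of its second TSS, was at 24 bp without replicate 3 and at -33 bp without replicate 1. With windows of 250 and 1000 bp, 5 and 8 members had a promoter summit, beside 19.5% and 28.6% of protein-coding genes. With the nearest-TSS rule it was 5 members beside 18.3%, and with any overlap 8 beside 26.1%. The causes were not tested. No paired analysis was possible because there was 1 group. The lists give no read counts and 3 of the 4 end at 30000 peaks, so a missing peak shows only that none was listed at that rank.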
